A study of Rattus norvegicus with 120 samples.

Results

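Hearts of obese ZSF1 rats fed BT2 were compared with hearts of obese ZSF1 rats fed vehicle in study A of a rat heart and kidney RNA-seq series. The members were chosen by their labels alone (heart, ZSF1 Obese, BT2 or Vehicle, study A), which gave 20 of the 120 libraries, with 10 BT2 and 10 vehicle libraries from 1 rat each. All rats were 30 weeks old, compounds were given in the chow, and neither dose nor duration is stated in the labels. ZSF1 obese rats lack working leptin receptors and are a model of obesity, diabetes, hypertension and heart failure with preserved ejection fraction, so treated and control rats share the genotype and the disease. Further groups used here were obese BT2 + Empagliflozin against obese Empagliflozin rats (study B heart, 10 against 10), obese against lean Vehicle rats (study A heart, 10 against 10), and obese BT2 against obese Vehicle rats (study A kidney, 9 against 10 after leaving out 1 library under 1000000 counts).

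Leucine, isoleucine and valine are first transaminated, in heart mainly by BCAT2, and the resulting ketoacids are then oxidized by the branched-chain ketoacid dehydrogenase, whose subunits are encoded by Bckdha, Bckdhb, Dbt and Dld. The kinase BDK, encoded by Bckdk, phosphorylates and inactivates this complex, and the phosphatase encoded by Ppm1k reactivates it. BT2 inhibits BDK, so its direct target is an enzyme activity and not a transcript. Empagliflozin inhibits SGLT2, the glucose transporter of the renal proximal tubule.

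The libraries held 9.06 to 19.4 M counts (M, 1000000) in BT2 hearts and 9.93 to 18.3 M in vehicle hearts. Mitochondrially encoded transcripts took 36.7% to 52.5% of counts in BT2 hearts and 37% to 48% in vehicle hearts. Replicates 1 to 5 of each group were on plate 1 and 6 to 10 on plate 2, and a repeat run was summed in for all 5 BT2 and 3 of 5 vehicle libraries of plate 1, and for 2 BT2 and 1 vehicle library of plate 2. Cardiac markers were abundant in every library: Actc1, cardiac actin, ranged from 6733 to 9418 counts per 1000000 (CPM) in BT2 and 8066 to 10231 CPM in vehicle hearts, and Mb, myoglobin, from 8991 to 13973 CPM and 9314 to 15734 CPM in the same groups. Lepr, the leptin receptor gene, was at 0.174 to 0.677 CPM in BT2 and at most 0.802 CPM in vehicle hearts, below the filter on low counts.

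Some hearts held transcripts of other muscle. Myl7, the atrial myosin light chain, was at 686 CPM in vehicle replicate 10 and 513 CPM in vehicle replicate 2, against medians of 78.5 CPM in BT2 and 84.2 CPM in vehicle hearts. Myh4, a fast myosin of skeletal muscle, was at 771, 245 and 160 CPM in BT2 replicates 4, 9 and 2, and at most 56.1 CPM in vehicle hearts. The skeletal muscle list had a median log2 fold change of 1.59 over 14 genes tested, and the atrial list one of -0.66 over 10, beside 0.01 over all genes. Several results below are therefore also given without vehicle replicate 10, or without it and BT2 replicate 4. Of these libraries, only those passed a cut of 5 times the median Myl7 or 100 times the median Myh4 of all hearts. Libraries under the cut, such as vehicle replicate 2 and BT2 replicates 9 and 2, stayed in.

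Few transcripts differed between BT2 and vehicle hearts beyond the spread between rats. Of 12545 genes, 7 (0.0558%) passed a Benjamini-Hochberg adjusted p of 0.05 in edgeR's quasi-likelihood test with plate as covariate, 3 higher (0.0239%) and 4 lower (0.0319%) with BT2. At an unadjusted p under 0.05 there were 986 genes (7.86%), of which 439 (3.5%) were higher and 547 (4.36%) lower. The 7 calls were fragile: leaving out vehicle replicate 10, BT2 replicate 4 or both left 0, and 895 genes had an unadjusted p under 0.05 without both. The DESeq2 Wald test called 95 genes (0.757%), 32 higher (0.255%) and 63 lower (0.502%), among them all 7, and the authors' deposited table lists 82 genes at an adjusted p under 0.05, also with all 7. All 7 had an adjusted p of 0.0443 by edgeR, and 2 of them, named here by identifier, have no symbol in the deposited table.

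The lower genes with a symbol encode proteins of connective tissue. Col3a1, the chain of type III collagen, stood at 103 to 244 CPM in BT2 hearts (median 149) and 187 to 327 CPM in vehicle hearts (median 248). Of the BT2 hearts, 8 lay below the lowest vehicle heart, and 7 vehicle hearts lay above the highest BT2 heart. Its log2 fold change was -0.69 ± 0.13 (SE; edgeR adjusted p = 0.0443), a level 0.621 times that of vehicle. Mfap4, a microfibril-associated glycoprotein, ranged from 33.8 to 59.8 CPM with BT2 (median 41) and from 51.4 to 82.6 CPM with vehicle (median 63.2), and fell by 0.53 ± 0.09 on the log2 scale. Cd248, endosialin of fibroblasts and pericytes, ranged from 5.12 to 10.8 CPM with BT2 (median 7.47) and from 8.44 to 14.3 CPM with vehicle (median 10.9), and fell by 0.47 ± 0.09. For both genes all 10 BT2 hearts lay below the vehicle median, and the ranges overlapped. ENSRNOG00000030021 fell by 0.99 ± 0.18, with 3.77 to 6.97 CPM in BT2 and 5.75 to 19.3 CPM in vehicle hearts.

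The higher genes with a symbol belong to amino acid metabolism and transport. Gstz1 encodes maleylacetoacetate isomerase, a late step of phenylalanine and tyrosine breakdown. It ranged from 22.3 to 36.5 CPM in BT2 hearts (median 27.9) and from 16.1 to 28.1 CPM in vehicle hearts (median 18.4). Every BT2 heart lay above 9 of the 10 vehicle hearts, the exception being vehicle replicate 3 at 28.1 CPM. Gstz1 rose by 0.59 ± 0.11 on the log2 scale, 1.51 times vehicle. Slc38a3, the glutamine transporter SNAT3, ranged from 39.5 to 81.9 CPM with BT2 (median 51.6) and from 29.2 to 51.5 CPM with vehicle (median 37.9), and rose by 0.49 ± 0.09. ENSRNOG00000066618 rose by 0.75 ± 0.14, at 3.93 to 7.19 CPM in BT2 and 2.25 to 4.80 CPM in vehicle hearts. The plot of the called genes by library shows these overlaps.

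**Figure D1:**
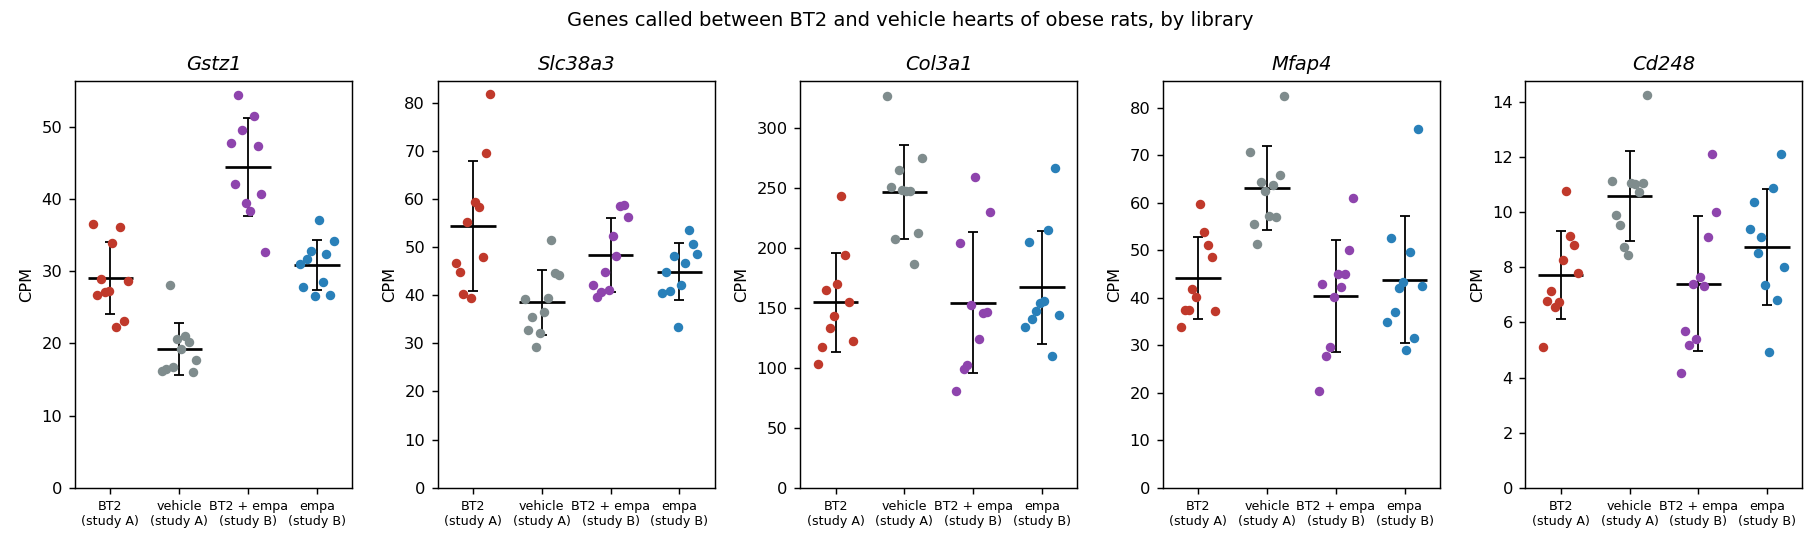
CPM (vertical axes) of the 5 called genes with a symbol in each heart library of obese rats, with the mean and SD (bars) of 10 libraries per group; CPM was set within each study. In study A, Gstz1 and Slc38a3 sit higher and Col3a1, Mfap4 and Cd248 lower in BT2 than in vehicle hearts, with some overlap; of these 5 only Gstz1 was called in study B.

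On the separate plates Gstz1 had log2 fold changes of 0.57 ± 0.15 (plate 1) and 0.61 ± 0.15 (plate 2), and Slc38a3 0.42 ± 0.10 and 0.55 ± 0.15 in the same order. Col3a1 had -0.98 ± 0.14 on plate 1 and -0.40 ± 0.17 on plate 2, and Mfap4 -0.68 ± 0.09 and -0.38 ± 0.14. The direction was therefore the same on both plates for these genes, and the matrix genes differed more on plate 1. Over all genes edgeR called 4 on plate 1 and 0 on plate 2. Leaving out 1 library at a time gave 0 calls for BT2 replicates 1 to 5 and 10 and for vehicle replicates 1, 2, 4, 5, 7, 9 and 10, 2 without BT2 replicate 6 and 1 without BT2 replicate 9. It gave 20 without BT2 replicate 7, 19 without vehicle replicate 3 and 23 without vehicle replicate 6 or 8. The fold changes moved less than the calls: that of Gstz1 stayed between 0.55 and 0.67 and that of Col3a1 between -0.77 and -0.62.

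Study B gave a second, separate set of animals, in which BT2 was added to empagliflozin. There edgeR called 3 of 12049 genes (0.0249%), all higher in BT2 + Empagliflozin than in Empagliflozin hearts. Without the libraries over the cut on Myl7 and Myh4 it called 2 (the skeletal muscle list had a median of 2.42 in study B). Gstz1 was again called, at 32.7 to 54.4 CPM in combination and 26.6 to 37.1 CPM in empagliflozin hearts. It rose by 0.52 ± 0.09 (edgeR adjusted p = 0.0156). Cyp26b1, which degrades retinoic acid, rose by 1.31 ± 0.19 (adjusted p = 0.00361), against a log2 fold change of 0.77 ± 0.23 in study A that missed the threshold (adjusted p = 0.266). Ptgr1, a reductase of prostaglandins and reactive aldehydes, rose by 0.47 ± 0.07 (adjusted p = 0.00361), with 0.30 ± 0.08 in study A (adjusted p = 0.125). The 7 genes called in study A had the same sign in study B in all 7 cases, compared with 7122 of 12032 genes (59.2%) tested in both and 748 of 944 (79.2%) of those at an unadjusted p under 0.05 in study A. Of the genes called by DESeq2 in study A, 84 of 91 (92.3%) had the same sign. For Col3a1 the study B change was -0.13 ± 0.18, for Mfap4 -0.14 ± 0.16 and for Slc38a3 0.10 ± 0.07, none of them called. The difference of the BT2 effect without and with empagliflozin was also tested. By edgeR 0 of 12864 genes were called, with 447 (3.47%) at an unadjusted p under 0.05. DESeq2 was not run on this difference. BT2 was given without empagliflozin only in study A and with it only in study B. Study and empagliflozin can therefore not be told apart, here or in the comparisons below.

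Extracellular matrix genes, made largely by cardiac fibroblasts, were lower in BT2 hearts as a group. This list, like the other gene lists, was written with earlier results of these data known. Of 29 list members tested, 1 (Col3a1) was called, 18 (62.1%) were lower at an unadjusted p under 0.05 and 0 higher, and 0 of 29 had a log2 fold change above 0. Over all genes 4.36% were lower and 3.5% higher at that p. The list's median was -0.35, beside 0.01 over all genes, and DESeq2 called 9 of its members, all lower. Summed over the list, matrix transcripts came to 1430 to 2438 CPM in BT2 hearts (1926 ± 312, SD, n = 10) and 2088 to 2681 CPM in vehicle hearts (2341 ± 214, SD, n = 10). On BT2 9 of 10 hearts lay below the vehicle median. In bulk tissue, fewer cells of a type and less RNA per cell cannot be told apart.

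The genes of this list described next were chosen after their values were seen. Col1a1 and Col1a2 encode the chains of type I collagen. Col1a2 stood at 44.3 to 99.7 CPM in BT2 hearts (median 58.5) and 78 to 122 CPM in vehicle hearts (median 85.5), and 9 BT2 hearts lay below the lowest vehicle heart. Its log2 fold change was -0.55 ± 0.11 (edgeR adjusted p = 0.0601), and that of Col1a1 was -0.61 ± 0.16 (adjusted p = 0.149). Mmp2, a gelatinase, had -0.48 ± 0.09 (adjusted p = 0.0561), Loxl2, a collagen cross-linking enzyme, -0.49 ± 0.10 (adjusted p = 0.0601), and Lum, a collagen-binding proteoglycan, -0.56 ± 0.12 (adjusted p = 0.0825). The basement membrane collagens Col4a1 and Col4a2 had smaller values, -0.15 and -0.08. In the fibroblast list 7 of 10 genes were lower and 0 higher at an unadjusted p under 0.05, with a median of -0.40; 4 of its 10 members, Col3a1, Col1a1, Lum and Dcn, also stand in the matrix list. Its median was -0.33 without vehicle replicate 10 and BT2 replicate 4, with 6 lower and 0 higher.

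**Figure D2:**
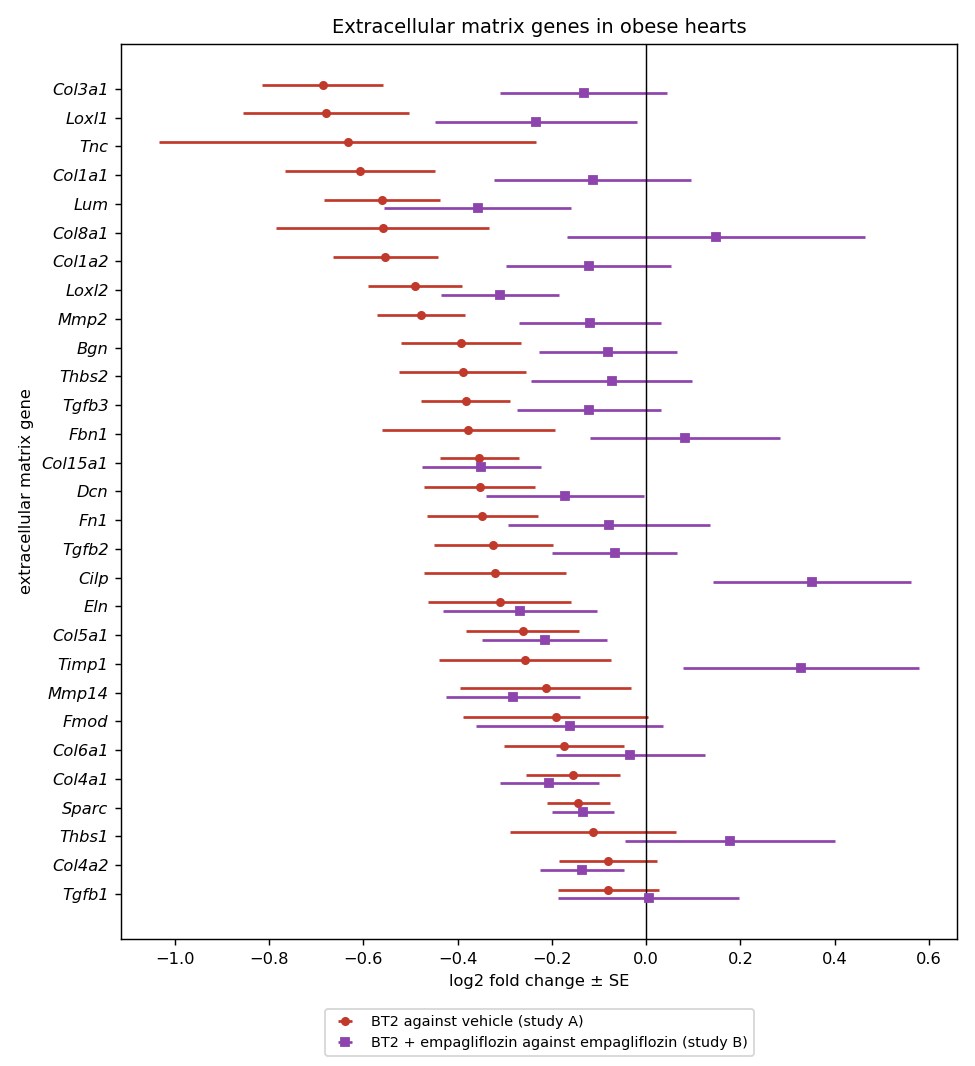
Log2 fold change ± SE (horizontal axis) of the 29 tested extracellular matrix genes (rows), with circles for BT2 against vehicle in study A and squares for BT2 + empagliflozin against empagliflozin in study B, 10 hearts per group. All circles lie left of 0, with a median of -0.35, while the squares have a median of -0.12 and 6 of 28 lie right of 0.

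The matrix difference was smaller on the second plate and in study B. The list's median was -0.49 on plate 1 and -0.21 on plate 2, and -0.34 without vehicle replicate 10 and BT2 replicate 4. In study B it was -0.12 over 28 genes, with 2 lower and 0 higher at an unadjusted p under 0.05. Of all genes 3.2% were lower and 4.94% higher there. Postn, periostin of activated fibroblasts, had opposite signs in the studies: -0.64 ± 0.20 in study A (adjusted p = 0.281) and 1.26 ± 0.32 in study B (adjusted p = 0.22), neither called, and the difference of effects had an edgeR adjusted p of 0.284.

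Macrophage genes were also lower in study A by their values. Of 15 tested, edgeR called 0 and DESeq2 called 2. At an unadjusted p under 0.05, 9 (60%) were lower and 0 higher, against 4.36% and 3.5% of all genes. A log2 fold change above 0 was found for 0 of 15, and the median was -0.48. C1qa, a complement subunit made by resident macrophages, stood at 8.90 to 21.5 CPM in BT2 and 13.2 to 42.3 CPM in vehicle hearts, the highest being vehicle replicate 10. Its log2 fold change was -0.60 ± 0.15 (adjusted p = 0.125), and -0.46 ± 0.12 without that library. Cd163, a haemoglobin scavenger receptor, had -0.50 ± 0.15 and Csf1r, the receptor for macrophage colony-stimulating factor, -0.39 ± 0.13. The median of the list was -0.30 without vehicle replicate 10, and 0.05 in study B with 0 genes at an unadjusted p under 0.05 in either direction. Summed, the list came to 131 to 367 CPM in BT2 and 186 to 513 CPM in vehicle hearts, with vehicle replicates 7 and 10 highest. By this sum 6 of 10 BT2 hearts lay below the vehicle median.

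**Figure D3:**
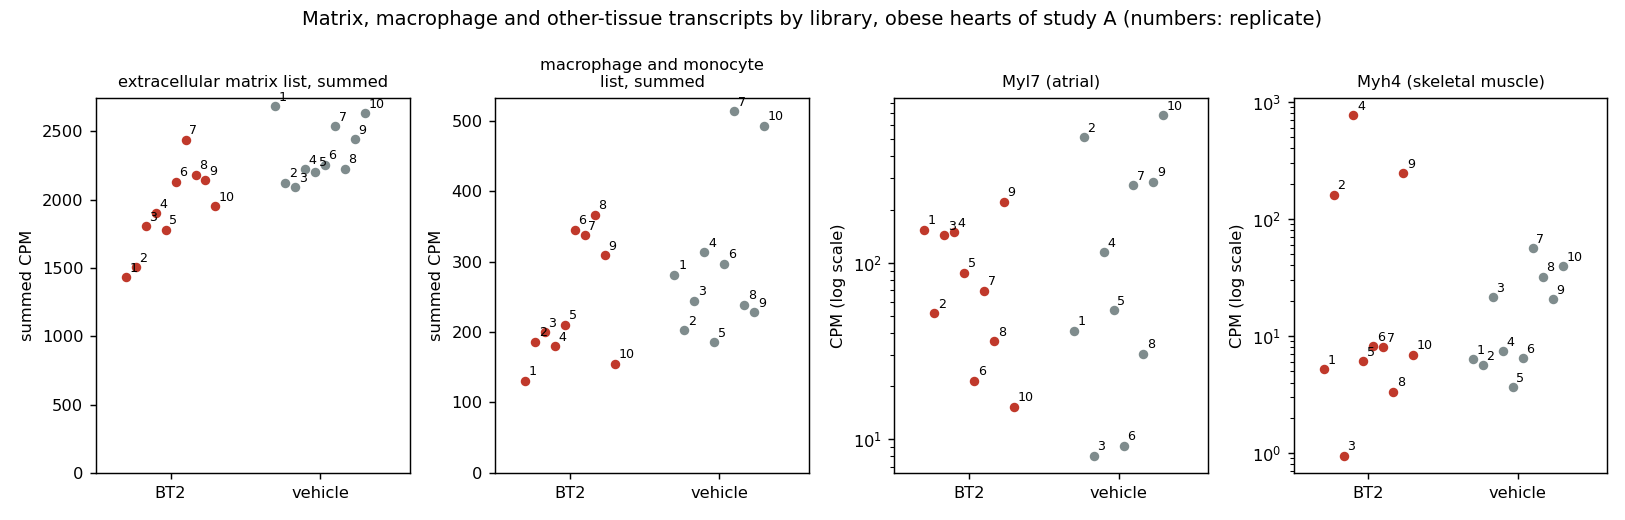
Summed CPM of the matrix and macrophage lists (left panels, linear axes) and CPM of Myl7 and Myh4 (right panels, log axes) in each obese heart of study A, with replicate numbers beside the points (1 to 5 plate 1, 6 to 10 plate 2). Matrix sums lie lower with BT2 (1430 to 2438) than with vehicle (2088 to 2681); Myl7 is highest in vehicle replicate 10 and Myh4 in BT2 replicate 4.

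Blood cell lists were small and mixed, without a call by edgeR. Of all genes in study A, 4.36% were lower and 3.5% higher at an unadjusted p under 0.05. Of 6 mast cell and neutrophil genes tested, 4 were lower and 1 higher at an unadjusted p under 0.05, with a median of -0.95, which was -0.72 without vehicle replicate 10 and BT2 replicate 4 (2 lower, 1 higher) and -0.0015 with the original run alone (1 lower, 1 higher). The higher one was Tpsb2, a mast cell tryptase, at 0.37 ± 0.09, which DESeq2 called. Of 4 erythroid genes tested, 2 were lower and 0 higher at that p, with a median of -0.51, and -0.34 without vehicle replicate 10. The next 3 genes were chosen after their values were seen. S100a8, a calcium-binding protein of neutrophils, was at 0.201 to 1.27 CPM in BT2 hearts, with a median of 0.458 CPM. In vehicle hearts it was at 0.711 to 6.78 CPM. Its log2 fold change was -1.70 ± 0.43 (edgeR adjusted p = 0.125), and DESeq2 called it. At such low counts the filter may have kept S100a8 mainly through the vehicle hearts, so its lower value is weak evidence. Its partner S100a9 had -1.34 ± 0.38. Hba-a2, an alpha globin, stood at 987 to 3064 CPM in BT2 and 1696 to 7305 CPM in vehicle hearts (-0.67 ± 0.19, adjusted p = 0.2). Whether blood in the tissue had a part in these values was not tested. In the cell cycle list 4 of 18 genes were lower and 0 higher at an unadjusted p under 0.05, with a median of -0.29 (2 lower and -0.23 without vehicle replicate 10), and Mki67, a proliferation marker, had -0.77 ± 0.24 (adjusted p = 0.287). In study B the cell cycle median was 0.05 over 13 genes.

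Of the 26 genes of branched-chain amino acid catabolism, 0 were called by edgeR and the median was 0.09. At an unadjusted p under 0.05, 4 were higher and 0 lower, against 3.5% and 4.36% of all genes. DESeq2 called 1 of the 26, Bcat2. Bcat2, the mitochondrial aminotransferase, stood at 72.0 to 109 CPM in BT2 and 52.3 to 83.6 CPM in vehicle hearts, and all 10 BT2 hearts lay above the vehicle median. Its log2 fold change was 0.36 ± 0.09 (edgeR adjusted p = 0.126), and 0.38 ± 0.11 on plate 1 and 0.33 ± 0.14 on plate 2. In study B it was 0.13 ± 0.09 (edgeR adjusted p = 0.774). Bckdk, which encodes the enzyme that BT2 inhibits, was at 94.3 to 132 CPM in BT2 and 85.2 to 123 CPM in vehicle hearts (0.07 ± 0.06, adjusted p = 0.91), and Ppm1k had 0.18 ± 0.29. Of the dehydrogenase subunits, Bckdha had 0.20 ± 0.09, Bckdhb 0.10 ± 0.07 and Dbt 0.20 ± 0.14, with adjusted p of 0.608, 0.819 and 0.852 by edgeR. Klf15, a transcription factor of amino acid catabolism, had 0.15 ± 0.11.

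Other amino acid genes, chosen after their values were seen, lay beside Gstz1. Hpd, an earlier enzyme of tyrosine breakdown, was at 7.64 to 21.4 CPM in BT2 and 3.64 to 12.3 CPM in vehicle hearts. It had 0.67 ± 0.14 (edgeR adjusted p = 0.0666) and in study B 0.51 ± 0.13 (adjusted p = 0.22). Gcat, which cleaves the threonine product aminoketobutyrate to glycine, had 0.70 ± 0.17 (adjusted p = 0.118), and Prodh1, proline dehydrogenase, 0.59 ± 0.15 (adjusted p = 0.13). In study B Gcat had 0.26 ± 0.12 (edgeR adjusted p = 0.583) and Prodh1 0.19 ± 0.10 (edgeR adjusted p = 0.648). For Hpd, Gcat and Prodh1 all 10 BT2 hearts of study A lay above the vehicle median, and DESeq2 called each of these genes there.

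PPAR transcription factors switch on genes of fatty acid use in the heart. Of their 20 targets tested, 0 were called by edgeR, and DESeq2 called 1 in each direction. At an unadjusted p under 0.05, 4 (20%) were lower and 1 higher, against 4.36% and 3.5% of all genes. The list's median was -0.09. It was -0.15 on plate 1, with 8 lower and 1 higher, and -0.03 on plate 2, with 1 lower and 0 higher. Summed, the list came to 6578 ± 548 CPM in BT2 and 6543 ± 397 CPM in vehicle hearts (SD, n = 10 each). On BT2 3 of 10 hearts lay below the vehicle median of this sum. Pdk4, the kinase that shuts off pyruvate dehydrogenase, was at 81.2 to 407 CPM in BT2 hearts (median 295) and 193 to 609 CPM in vehicle hearts (median 448). All 10 BT2 hearts lay below the vehicle median, and 8 vehicle hearts lay above the highest BT2 heart. Its log2 fold change was -0.65 ± 0.21 (edgeR adjusted p = 0.31). It was -0.86 ± 0.11 on plate 1, called there (adjusted p = 0.0184), and -0.44 ± 0.37 on plate 2. Angptl4, an inhibitor of lipoprotein lipase, had -0.86 ± 0.30 (edgeR adjusted p = 0.367), at 6.97 to 60.8 CPM in BT2 and 32.6 to 67.1 CPM in vehicle hearts. For Angptl4, 7 BT2 hearts lay below the lowest vehicle heart and 2 above the vehicle median. Ucp2, an uncoupling protein family member, had -0.28 ± 0.10. The higher member was Lpl, lipoprotein lipase, at 0.37 ± 0.08 (adjusted p = 0.0991).

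In study B 6 of 20 PPAR targets (30%) were lower and 2 higher at an unadjusted p under 0.05, again with 0 called. Over all genes of study B the shares were 3.2% lower and 4.94% higher. In study B Pdk4 had -0.45 ± 0.12, Angptl4 -1.03 ± 0.28, Ucp2 -0.32 ± 0.07 and Lpl 0.24 ± 0.10. Most genes of the mitochondrial fatty acid oxidation list had small differences in study A, with a median of -0.03. At an unadjusted p under 0.05, 1 of 20 (5%) was lower, near the 4.36% of all genes, and 0 were higher.

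Obese Vehicle hearts were also set against lean Vehicle hearts, and these values share the obese Vehicle libraries with the BT2 comparison, so a chance shift of those libraries enters both with opposite sign. The obese against lean comparison called 680 of 12694 genes (5.36%). Gstz1 averaged 21 ± 4.01 CPM in obese and 41.7 ± 1.98 CPM in lean hearts (SD, n = 10 each), a log2 fold change of -0.99 ± 0.09 (edgeR adjusted p = 7.19e-08). Angptl4 averaged 47.8 ± 12.8 CPM in obese and 3.28 ± 0.98 CPM in lean hearts (3.86 ± 0.17), and Pdk4 486 ± 151 CPM in obese and 153 ± 50.5 CPM in lean hearts (1.70 ± 0.17). Bcat2 had -0.65 ± 0.14 and Lpl -0.53 ± 0.09. Col3a1 had 0.22 ± 0.13 (adjusted p = 0.417) and the matrix list a median of 0.10 between obese and lean hearts. The plot of metabolic genes sets the comparisons side by side.

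**Figure D4:**
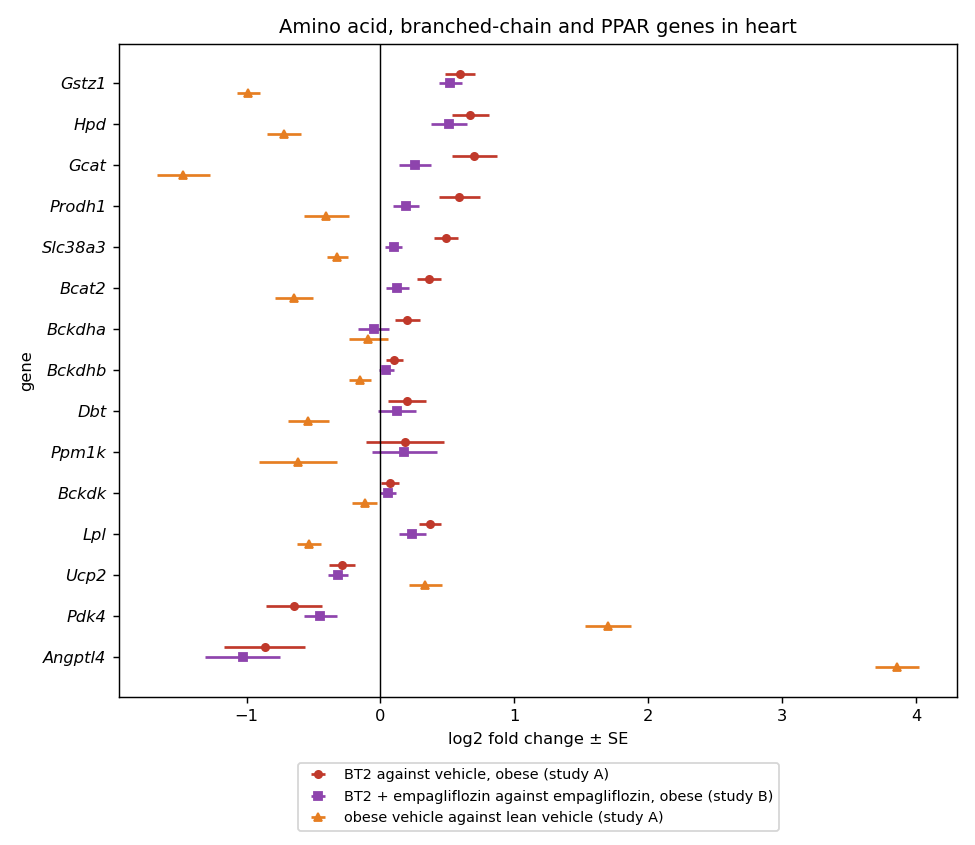
Log2 fold change ± SE (horizontal axis) of amino acid, branched-chain and PPAR genes (rows), with circles for BT2 against vehicle, squares for BT2 + empagliflozin against empagliflozin, and triangles for obese against lean vehicle, 10 hearts per group. Circles and triangles share the obese vehicle hearts; circle and square for Gstz1 lie at 0.59 and 0.52 and for Angptl4 at -0.86 and -1.03.

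Genes of cardiac load gave no call by edgeR. In the cardiac stress list 4 of 13 were lower and 0 higher at an unadjusted p under 0.05, against 4.36% and 3.5% of all genes. The list's median was -0.09, and -0.03 without vehicle replicate 10 and BT2 replicate 4. This list is not separate from the matrix list: on plate 2 alone both had the same median, -0.213986. Summed, the stress list came to 25428 ± 4105 CPM in BT2 and 24344 ± 3182 CPM in vehicle hearts (SD, n = 10 each). Nppa, atrial natriuretic peptide, was at 424 to 1058 CPM in BT2 and 455 to 1956 CPM in vehicle hearts (-0.67 ± 0.25, adjusted p = 0.439). It is also an atrial transcript, and with a term for Myl7 it had -0.50 ± 0.16. Nppb, the B-type peptide, had -0.26 ± 0.12 and Ccn2, connective tissue growth factor, -0.70 ± 0.21. The myosin heavy chains Myh6 and Myh7 had 0.01 ± 0.11 and 0.16 ± 0.11, and the sign for Myh6 changed with the setting. In study B the stress list had a median of 0.13, with Nppa at -0.53 ± 0.46 and Nppb at 0.13 ± 0.13.

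Interferon-induced genes had a median of -0.13 over 25 genes in study A, with 5 lower and 1 higher at an unadjusted p under 0.05. In study B it was -0.31 over 24 genes, with 10 lower and 0 higher. Over all genes the shares were 4.36% lower and 3.5% higher in study A, and 3.2% and 4.94% in study B. The genes named next are lower members chosen after their values were seen, while 8 of 25 had a log2 fold change above 0 in study A. Irf7, a regulator of type I interferon, had -0.56 ± 0.12 in study A (edgeR adjusted p = 0.0849) and -0.48 ± 0.14 in study B (adjusted p = 0.288). Mx2, an antiviral GTPase, had -0.29 ± 0.13 in study A (edgeR adjusted p = 0.545) and -0.64 ± 0.17 in study B (adjusted p = 0.25). Isg15, a ubiquitin-like protein, had -0.91 ± 0.30 in study A (edgeR adjusted p = 0.328). There vehicle replicate 10 stood at 16.9 CPM against a vehicle median of 3.13 CPM. In study B Isg15 had -0.51 ± 0.40 (edgeR adjusted p = 0.81).

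Clock genes leaned the other way. Of 17 tested, 7 were higher and 0 lower at an unadjusted p under 0.05, against 3.5% and 4.36% of all genes. None was called by edgeR or DESeq2, and the list's median was 0.23. Per2 and Per3, repressors in the clock, had 0.52 ± 0.18 and 0.59 ± 0.22, and Tef, a clock output factor, 0.22 ± 0.09. Arntl, the activator whose transcript runs in the opposite phase, had -0.34 ± 0.24. The median was 0.42 on plate 1, with 10 higher and 4 lower, and 0.08 on plate 2, with 0 in either direction. Without vehicle replicate 10 it was 0.19, with 4 higher and 0 lower. In study B it was 0.12 over 16 genes, with 2 higher and 2 lower. The labels do not state the time of day of tissue collection, and its part in these values was not tested.

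**Figure D5:**
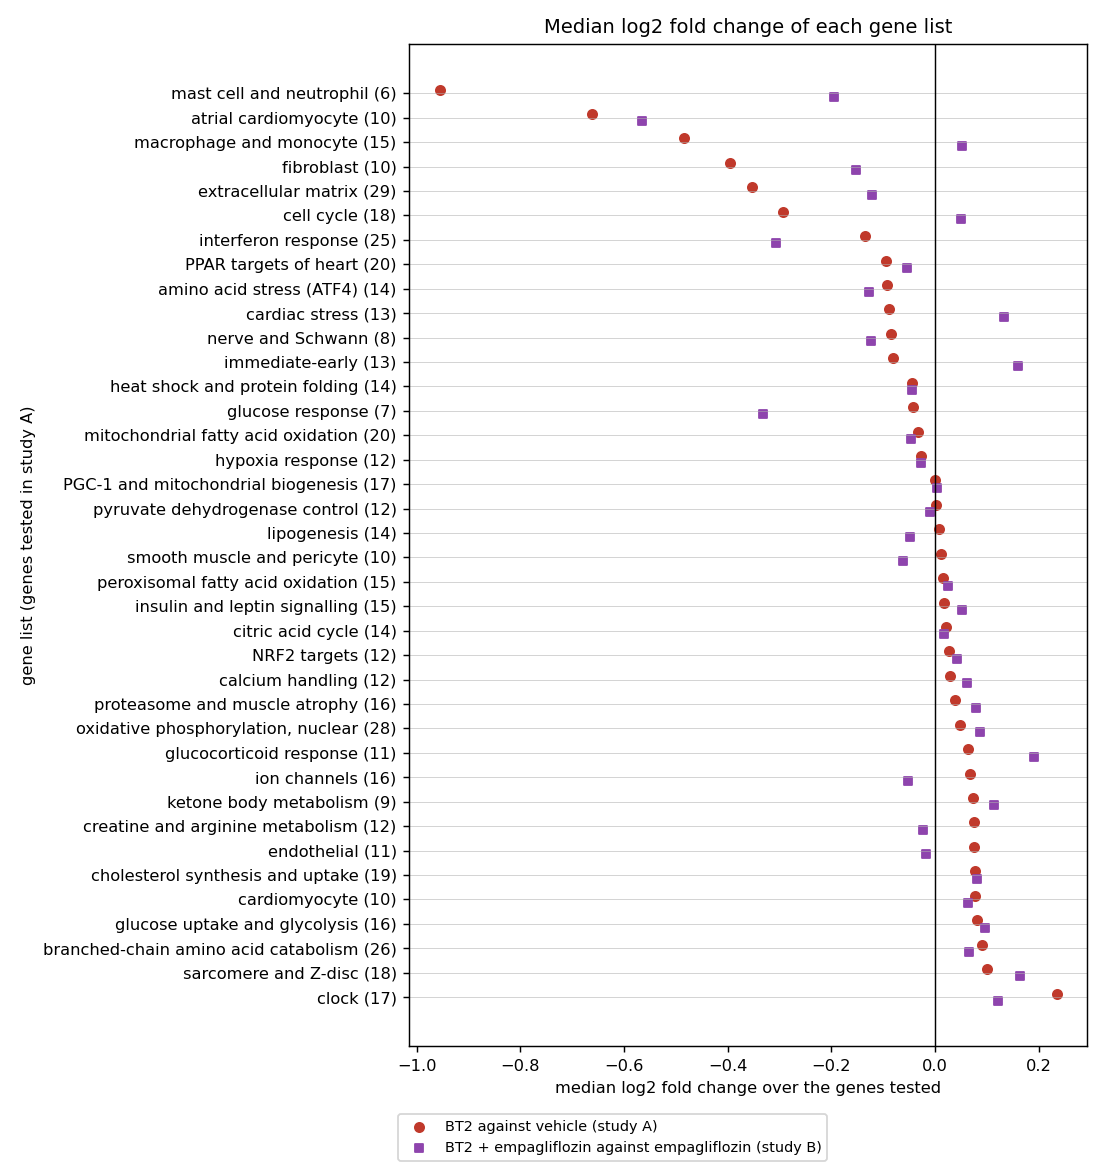
Median log2 fold change over the tested genes (horizontal axis) of each list with at least 5 genes (rows; number tested in study A in parentheses), for BT2 against vehicle (circles) and BT2 + empagliflozin against empagliflozin (squares); the skeletal muscle list, at 1.59 and 2.42, is left out for scale. The macrophage, fibroblast and matrix lists lie at -0.48, -0.40 and -0.35 in study A and nearer to 0 in study B, and most metabolic lists lie within 0.1 of 0 in both.

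Cholesterol genes had a median of 0.08 over 19 genes. At an unadjusted p under 0.05, 3 were higher and 0 lower, against 3.5% and 4.36% of all genes. The lipogenic genes Srebf1, a transcription factor, and Scd2, a desaturase, had 0.03 ± 0.11 and 0.04 ± 0.14 in heart, against 1.86 ± 0.15 and 2.46 ± 0.12 in kidney, where edgeR called 1186 of 14447 genes (8.21%) between BT2 and vehicle. The BT2 effect differed between the organs for 114 of 15053 genes (0.757%), and which heart and kidney came from 1 rat was not used. Gstz1 rose in kidney too, by 0.42 ± 0.09 (adjusted p = 0.00588), as did Slc38a3, by 0.76 ± 0.11 (adjusted p = 0.000305), and for neither did the test of the difference between organs pass (adjusted p = 0.637 and 0.414).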

How the data were processed

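Poly-A RNA from frozen heart was made into stranded libraries, per the labels. The count tables the authors deposited hold expected counts per gene and run, 6.85% of them not whole. Their comparison table holds signal (counts scaled by the authors per library), log2 fold changes and p-values. Tools listed in the submitters' processing notes, without roles, are DESeq2 1.34.0, Salmon 1.5.2, STAR 2.7.3a, MultiQC 1.11, Picard and FastQC 0.11.9; the build is mRatBN7.2. The authors' scaled counts were proportional to both runs summed in 20 of 20 libraries (coefficient of variation under 0.01), so runs were summed and rounded. Of the count columns, 82 match no sample and were not used. In R 4.3.3, edgeR 4.0.16 with filterByExpr and TMM factors gave quasi-likelihood F tests with plate as covariate, and Benjamini-Hochberg adjustment over all genes tested; the code was tested on simulated data. Alternatives included DESeq2 1.42.0. CPM use TMM factors of the compared libraries. Genes carry deposited symbols, 7 taken from the deposited description.

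Members and the 45 gene lists (704 genes, 596 tested) were chosen with earlier results of these data known. The naming rule allowed up to 10 highest, 10 lowest and 10 smallest adjusted p among called genes (symbol and 5 CPM), and up to 4 called genes per list. As 7 genes were called, it gave only the 5 with a symbol. The called genes without a symbol are given by identifier. Named whatever their values were Bckdk, Ppm1k, Bckdha, Bckdhb, Dbt, Bcat2, Klf15, Pdk4, Nppa, Nppb, Myh6, Myh7, Srebf1, Scd2 and Lepr. All others were chosen after their values were seen. Some genes are not reported here.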

Additional observations from a re-analysis of the deposited data

Results flagged for a closer look

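Each named gene in BT2 or in vehicle hearts made 1 group of 10 hearts. Of 114 groups tested, 18 had a library far from the others by Dixon's test at 95%. That test flags about 1 in 20 independent groups of normal values by chance. These groups share libraries and many genes were chosen after their values were seen, so the 18 cannot be set against that rate. Vehicle replicate 10 was the highest vehicle heart for Cd248 (14.3 CPM), Dpt (dermatopontin of fibroblasts, 148 CPM), Postn (27.9 CPM), C1qa (42.3 CPM), C1qb (26.4 CPM), Isg15 (16.9 CPM), Hba-a2 (7305 CPM) and Mki67 (11.1 CPM). It was also highest for the atrial transcript Myl7, and the part of atrial tissue in these values was not tested. Vehicle replicate 3 was highest for Gstz1 (28.1 CPM), Cyp26b1 (14.5 CPM) and Cyp2e1 (25.8 CPM), and vehicle replicate 4 for S100a8 (6.78 CPM) and S100a9 (18.9 CPM). Among BT2 hearts, replicate 6 was lowest for Pdk4 (81.2 CPM) and highest for Hpd (21.4 CPM) and for the clock output gene Dbp (60.3 CPM). BT2 replicate 7 was highest for Myh7 (21015 CPM), and BT2 replicate 3 for Cyp2e1 (29.7 CPM).

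The BT2 effect differed between heart and kidney in a test of the difference itself for 3 of the named genes. Heart minus kidney, the log2 difference was -1.84 for Srebf1 (edgeR adjusted p = 8.03e-08), -2.42 for Scd2 (8.01e-12) and 0.83 for ENSRNOG00000066618 (0.0103).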

How the results depend on the processing

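The count of 7 called genes became 95 with the DESeq2 Wald test and 11 with all 6 heart groups in one fit. It became 4 on plate 1 alone and 3 with a term for Myl7. It was 0 with no plate term, on plate 2 alone, without vehicle replicate 10, without BT2 replicate 4 and without both. Leaving out all libraries over the cut on Myl7 and Myh4 was the same as leaving out both. Without the 5 libraries highest in Myl7 the count was 0 too. That last setting and the Myl7 term were chosen after seeing the data. Leaving out 1 library at a time gave 0 to 23. No pairing of hearts by replicate number was seen, though low correlations cannot exclude a shared block. Same-numbered deviations correlated at -0.33 to 0.04, 0 of 10 pairs were over 0.1, and 0 of 10 correlated best with their own number. With the replicate block the count was 0. The cause of these shifts was not tested. Genes called had the same direction under all alternatives run. Signs changed only for genes near 0: Ppm1k was -0.027 without the 5 libraries highest in Myl7, Bckdhb -0.020 on plate 2 alone, Scd2 -0.14 on plate 2 alone and Srebf1 -0.025 without vehicle replicate 10 and BT2 replicate 4. Myh6 was -0.0053 with no plate term, -0.090 on plate 2 alone, -0.0024 with a term for a repeat run and -0.011 without both libraries. With 1 library left out, Myh6 ranged from -0.044 to 0.073, Srebf1 from -0.0024 to 0.096 and Scd2 from -0.011 to 0.11. Lists of low genes are limited by depth, and 2 lymphocyte genes of 13 passed the filter.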

Other observations

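The genes given here lie outside the lists, were not called by edgeR, and were chosen after their values were seen. Alox15, a lipoxygenase, was at 2.84 to 6.13 CPM in BT2 and 4.92 to 16.2 CPM in vehicle hearts, with 8 vehicle hearts above the highest BT2 heart (log2 fold change -0.99 ± 0.20, edgeR adjusted p = 0.0601). In study B it had -0.79 ± 0.31 (adjusted p = 0.469), and 3.49 ± 0.22 in obese against lean hearts, which share the vehicle libraries. Npy, neuropeptide Y of sympathetic nerves, had -0.75 ± 0.16 (adjusted p = 0.0797) in study A and -0.42 ± 0.15 in study B (edgeR adjusted p = 0.424). Gnb3, a G protein subunit, had 0.33 ± 0.07 (adjusted p = 0.0561) and 0.35 ± 0.08 in study B (edgeR adjusted p = 0.194). Cyp2e1, a cytochrome P450, had 0.55 ± 0.14 (adjusted p = 0.125) and 0.55 ± 0.13 in study B (edgeR adjusted p = 0.194).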
